A study of Mus musculus with 12 samples.

Results

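The comparison described here is SMA against control in E14.5 mouse spinal cord, measured by ribosome profiling. It was taken by its labels, and holds 6 of the 12 libraries of the series, 3 control and 3 SMA. All 10481 genes of the count table entered the test. Control embryos were Smn+/-; SMN2tg/0 and SMA embryos were Smn-/-; SMN2tg/0, both of the Taiwanese strain, so the human SMN2 transgene was present in both groups, and control embryos also lacked 1 Smn allele. Neither group received a treatment, and both sexes were used. The sources state triplicates without saying which libraries share a litter, so p-values measure the spread between these libraries.

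Ribosome profiling sequences the short mRNA fragments that a ribosome shields from RNase, so the footprints on a gene follow both the amount of its mRNA and how densely ribosomes sit on it. SMN, the protein lost in spinal muscular atrophy, assembles the Sm core of spliceosomal snRNPs and also associates with ribosomes, and spinal motor neurons are the cells best known to need it. The embryonic cord at this stage holds dividing progenitors along the central canal, newly formed neurons and early glia. In such bulk tissue, fewer cells of a type cannot be told apart from less RNA or fewer ribosomes per cell.

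Library totals, counted in footprints assigned to genes, lay between 10315064 and 12793955 in control and between 5162190 and 8027322 in SMA. Every SMA library was thus shallower than every control library, and the log2 total had a Pearson r of -0.886 with genotype over the 6 libraries. Depth and genotype therefore cannot be told apart by a comparison of the groups alone. Between 23 and 197 genes had a count of 0 in a library. Gene names were at hand for 1999 of the 10481 genes, and these are the genes with the lowest Ensembl numbers, not genes chosen by their values. Of the 1986 symbols on 43 written gene lists, 392 were followed by name. Smn1, the targeted gene, was not analysed here, and genotypes are taken from the labels.

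The labelled tissue was checked against Hox genes, which are active in hindbrain and cord and off in forebrain. On a scale shared by all 12 libraries, Hoxb6 lay between 65.3 and 159 normalized CPM (the library's counts scaled to a common total, with TMM factors) in the 6 cord libraries, and between 0 and 1.67 CPM in the 6 brain libraries. The neurofilament gene Nefm lay between 433 and 674 CPM in cord and between 112 and 171 CPM in brain. Of 25 motor neuron markers only Nefl, Nefm and Aldh1a2 had a name at hand, so motor neurons as such were not followed.

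In 3 cord libraries, genes of another tissue stood out, and these libraries bear on several results. Control 1 held forebrain genes. Otx2, which patterns forebrain and midbrain, had 42.2, 3.06 and 0.961 CPM in control libraries 1 to 3 and 8.51, 1.97 and 7.40 CPM in SMA libraries 1 to 3. Fezf2, a transcription factor of the forebrain, had 12.5, 1.24 and 0.577 CPM in control and 4.13, 0.591 and 2.14 CPM in SMA. Control 1 was highest for both genes, followed by SMA 1. On the 12-library scale, Otx2 in control cord 1 reached 41.1 CPM, against 87.4 to 124 CPM in control brain. With a 4-fold margin over each of the other 5 libraries and at least 5 CPM, control 1 held 20 genes, and 19 of these were higher in control brain than in control cord 2 and 3. For 17 of the 20 that excess was at least 4-fold, which was true of 1.64% of all genes.

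SMA 1 and control 3 held liver genes. Apob, the main protein of plasma lipoproteins, had 21.8, 2.39 and 298 CPM in control and 923, 2.76 and 11.8 CPM in SMA. Hnf4a, a transcription factor of hepatocytes, had 3.11, 0.573 and 8.26 CPM in control and 30.3, 0.788 and 0.658 CPM in SMA. Both genes were highest in SMA 1 and next highest in control 3. A total of 63 genes stood at least 4-fold higher in both of these libraries than in each of the other 4, with Apob, Apoa2, Itih4 and Apoh among the 12 with a name. A further 41 genes stood out in SMA 1 alone, and none did in control 2, control 3, SMA 2 or SMA 3 alone. The excess lay in 1 library of each genotype. None of the 63 genes passed the study's thresholds for a difference between genotypes. They were chosen for a wide spread within both genotypes, so this says nothing about the effect of these libraries on other genes. Correlation of log2 levels over genes followed the same split, with r = 0.983 between control 3 and SMA 1, 0.986 between control 2 and SMA 2, 0.988 between control 2 and SMA 3 and 0.933 between SMA 1 and SMA 2.

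**Figure D1:**
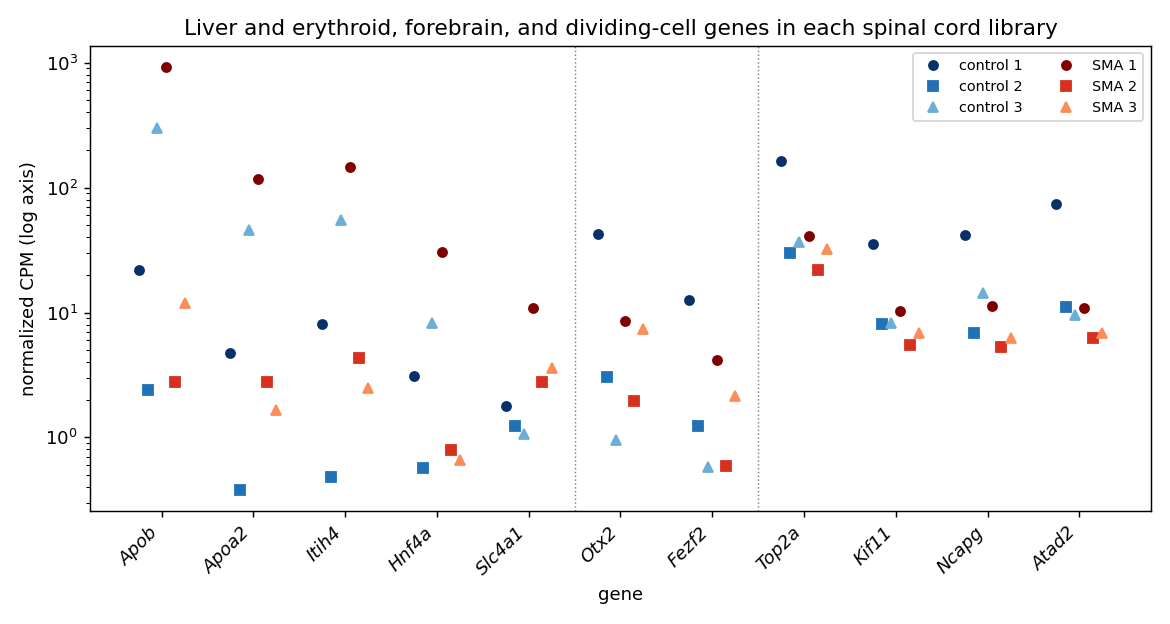
Normalized CPM (log axis) of liver and erythroid genes (left), forebrain genes (middle) and genes of dividing cells (right) in the 6 spinal cord libraries, with 1 point per library. Apob, Apoa2, Itih4 and Hnf4a are highest in SMA 1 and next highest in control 3, while Otx2, Fezf2, Top2a, Kif11, Ncapg and Atad2 are highest in control 1.

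SMA was compared with control by edgeR's quasi-likelihood test on the counts of the 6 libraries. Among the genes with a name that were lower in SMA at a small unadjusted p were Nemf, Ubp1, Kitl, Riok1, Nes, Nde1 and Pttg1, which differ in function. Among those higher in SMA were Pgrmc1, Hspa8, Prdx2, Ywhaz and Tubb5, most of them abundant in neural tissue. An unadjusted p below 0.05 was reached by 733 genes (6.99%), 342 of them lower (3.26%) and 391 higher (3.73%), where 524 would be expected if no gene differed. None had an adjusted p below 0.05 with edgeR (0%), and the smallest adjusted p was 0.684. In what follows, log2FC is the log2 fold change of SMA over control and SE its standard error. The study's pathway thresholds, a log2FC of at least 0.3 in either direction with an unadjusted p below 0.05, were passed by 439 genes (4.19%), 224 of them lower (2.14%) and 215 higher (2.05%). The stricter thresholds of the study, with a log2FC of at least 0.5 in either direction, were passed by 103 genes (0.983%), 67 lower (0.639%) and 36 higher (0.343%). The lower genes made up 65.0% of these, and 75.7% where library size alone was used in place of TMM. Of the 10481 genes, 1536 (14.7%) had no overlap between the 3 control and the 3 SMA values, and 51.1% were lower in SMA at any p. DESeq2 gave an adjusted p to 1538 genes and called 84 of them (5.46%) at an adjusted p below 0.05, 76 higher and 8 lower. Those 84 genes were abundant, with a median of 443 CPM. All of them had no overlap between the genotypes and an edgeR p below 0.05, read from the same 6 libraries. None of the 84 was among the genes that stood out in SMA 1 with control 3 or in control 1. The spread of those genes within a genotype all but precludes such a call.

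The genes with the smallest p over the whole table had no name at hand. ENSMUSG00000052446 had 25.0, 29.0 and 24.9 CPM in control and 15.0, 15.2 and 15.1 CPM in SMA, with an unadjusted p of 0.000342 from edgeR and a log2FC of -0.80 (SE 0.12). Its SMA values lay close together and well under control, and its log2FC was -0.89 with the log2 library total as covariate. ENSMUSG00000069919 had 272, 297 and 305 CPM in control and 373, 461 and 428 CPM in SMA, with an unadjusted p of 0.000895 from edgeR and a log2FC of 0.53 (SE 0.10). ENSMUSG00000069917 ran in parallel, with 253, 275 and 284 CPM in control and 347, 428 and 401 CPM in SMA and the same log2FC of 0.53. Both had no overlap between the genotypes and a DESeq2 adjusted p of 9.1e-05. Their log2FC came to 0.29 and 0.30 with a trend on footprint density taken out and to 0.14 with the log2 library total as covariate. Reads with several alignments were kept by the authors, and whether ENSMUSG00000069919 and ENSMUSG00000069917 share reads was not tested. Their parallel values therefore cannot be taken as independent differences.

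Of the genes lower in SMA, Kitl (ENSMUSG00000019966, chr10:100015615-100100416 of GRCm38.p6, the build of all coordinates given) encodes the ligand of the receptor tyrosine kinase Kit. It had 76.4, 74.3 and 74.4 CPM in control and 61.2, 51.4 and 57.7 CPM in SMA. All 3 SMA values lay under all 3 control values, with a log2FC of -0.40 (SE 0.09, unadjusted p = 0.00297 from edgeR). Nemf (ENSMUSG00000020982, chr12:69311541-69357201), a factor of the ribosome quality control complex that marks stalled nascent chains, had 79.9, 74.1 and 67.3 CPM in control and 55.2, 47.9 and 55.3 CPM in SMA. Its log2FC was -0.48 (SE 0.10, unadjusted p = 0.00228 from edgeR). Ubp1 (ENSMUSG00000009741, chr9:113930939-113978027), a transcription factor of the grainyhead family, had 97.2, 85.6 and 86.9 CPM in control and 66.7, 63.2 and 72.2 CPM in SMA. Its log2FC was -0.42 (SE 0.09, unadjusted p = 0.00283 from edgeR). Neither gene overlapped between the genotypes. Riok1, a kinase that acts in the maturation of the small ribosomal subunit, had 109, 125 and 109 CPM in control and 84.0, 82.5 and 96.4 CPM in SMA, a log2FC of -0.38. Med7, a subunit of Mediator, and Slu7, a factor of the second step of splicing, had log2FC values of -0.34 and -0.32. For all of these genes the edgeR p stayed below 0.05 with each of the 6 libraries left out in turn. Nemf, Ubp1, Kitl, Riok1, Med7 and Slu7 were picked after their values were seen.

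Among the genes higher in SMA, Pgrmc1 (ENSMUSG00000006373, chrX:36598193-36606079) had the smallest p of those with a name. It encodes a heme-binding membrane protein of the endoplasmic reticulum. Its levels were 77.5, 83.4 and 83.2 CPM in control and 105, 106 and 102 CPM in SMA, with a log2FC of 0.36 (SE 0.07, unadjusted p = 0.00185 from edgeR). Hspa8 (ENSMUSG00000015656, chr9:40801276-40805202), the constitutive cytosolic Hsp70 chaperone, had 1213, 1253 and 1409.7 CPM in control and 1532, 1870.3 and 1619.6 CPM in SMA, a log2FC of 0.37 (SE 0.09). Prdx2, a peroxiredoxin abundant in neurons and red cells, had 681, 758 and 781 CPM in control and 843, 1061 and 979.9 CPM in SMA, a log2FC of 0.38. Ywhaz, a 14-3-3 adaptor protein, had 964, 1042 and 1056 CPM in control and 1128, 1429 and 1339 CPM in SMA, a log2FC of 0.35. In the genes from Pgrmc1 to Ywhaz no SMA value overlapped a control value, control 1 was the lowest library and, among SMA libraries, the shallowest one was the highest. Of genes at lower levels, Sh3bp1, which encodes a GTPase-activating protein, had 3.97, 4.01 and 3.56 CPM in control and 8.13, 14.4 and 5.76 CPM in SMA, a log2FC of 1.28 (SE 0.34). Dad1, a subunit of oligosaccharyltransferase, had 35.0, 22.8 and 22.9 CPM in control and 39.3, 39.2 and 36.5 CPM in SMA, a log2FC of 0.51 (SE 0.18). Control 1 lay near the SMA values of Dad1. With single libraries left out in turn, its edgeR p was below 0.05 only without control 1. Pgrmc1, Prdx2 and Ywhaz were picked after their values were seen.

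**Figure D2:**
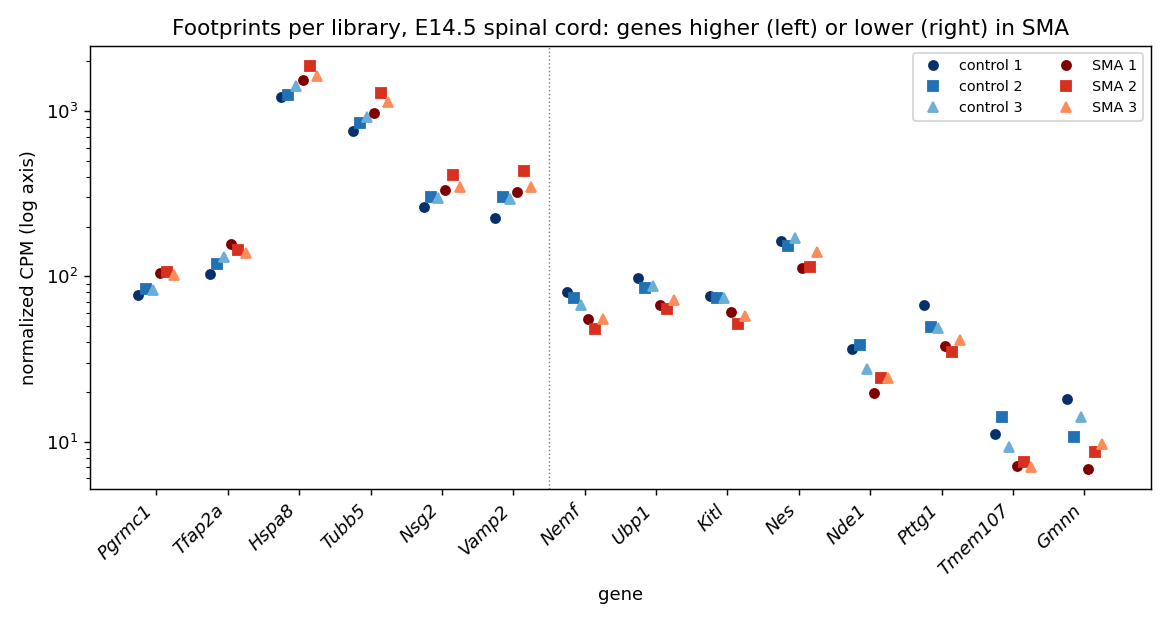
Normalized CPM (log axis) of 6 genes higher in SMA (left of the dotted line) and 8 genes lower in SMA (right) in each of the 6 spinal cord libraries, with 1 point per library. In each of the 14 genes the 3 SMA values lie on 1 side of the 3 control values, and the separation is narrow beside the spread for Tubb5 and Gmnn.

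The order of the libraries by depth ran through many of the called genes. Of the 215 genes higher in SMA past the pathway thresholds, 56.3% were also higher in control 2 and 3 than in the deeper control 1, and rose within SMA from library 1 to 3 to 2, the order of decreasing depth. Of all genes, 18.6% showed this order in both genotypes. The deepest library of each genotype, control 1 and SMA 1, was also one in which forebrain or liver genes stood out. Depth and carried-over tissue therefore cannot be fully told apart in this order. Of the 224 genes lower in SMA, 23.2% showed the reverse order in both genotypes, against 15.2% of all genes. The genes higher in SMA had a median listed length of 1276 bases and those lower in SMA one of 5205 bases, where the median of all genes was 3020 bases. The log2FC had a Spearman rank correlation of 0.332 with CPM per base of gene length, of -0.327 with length and of 0.0178 with mean CPM over 10251 genes at least 200 bases long. These are correlations across genes of the same 6 libraries.

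The same tilt was present between libraries of 1 genotype. In the tenth of genes with the lowest footprint density the median log2 ratio was -0.15 for SMA over control, -0.76 for SMA 2 over SMA 1 and -0.68 for control 2 over control 1. In the tenth with the highest density it was 0.16, 0.23 and 0.14. Control 2 and control 3, which had nearly the same depth, differed by -0.17 and -0.02 in these bins. Each of these within-genotype pairs holds SMA 1, control 1 or control 3, the libraries in which liver or forebrain genes stood out. Whether the tilt follows depth or carried-over tissue cannot be told apart by these pairs and was not tested. In the densest bin 9.27% of genes passed the pathway thresholds as higher and 0.0976% as lower, and in the sparsest bin 0.39% and 3.41%. With each library's trend on this density taken out by offsets, Hspa8 came to a log2FC of 0.13, Prdx2 to 0.14 and Ywhaz to 0.11, while Nemf came to -0.37, Ubp1 to -0.39, Kitl to -0.34 and Nes to -0.40. With the log2 library total as a covariate, a fit chosen after seeing the data, 15 of the 39 genes given statistics by name changed sign, among them Prdx2 at -0.059, Ywhaz at -0.070, Tubb5 at -0.10, Mapt at -0.29 and Top2a at 1.58. Hspa8 came to 0.02, Nemf to -0.19, Ubp1 to -0.25 and Kitl to -0.15 in that fit, while Pgrmc1 came to 0.30, Nes to -0.47, Nde1 to -0.79 and Tmem107 to -0.77. None of these 8 genes kept an unadjusted p below 0.05 there, and of the 37 named genes that had one, 2 kept it in the same direction, Slc4a1 and Dad1. The medians of gene lists described further on also turned in that fit, to 1.20 for mitosis, 0.74 for DNA replication, 0.52 for nucleoporins, -0.20 for ribosomal proteins, -0.13 for oxidative phosphorylation, -0.26 for pan-neuronal genes and -0.18 for tubulins.

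**Figure D3:**
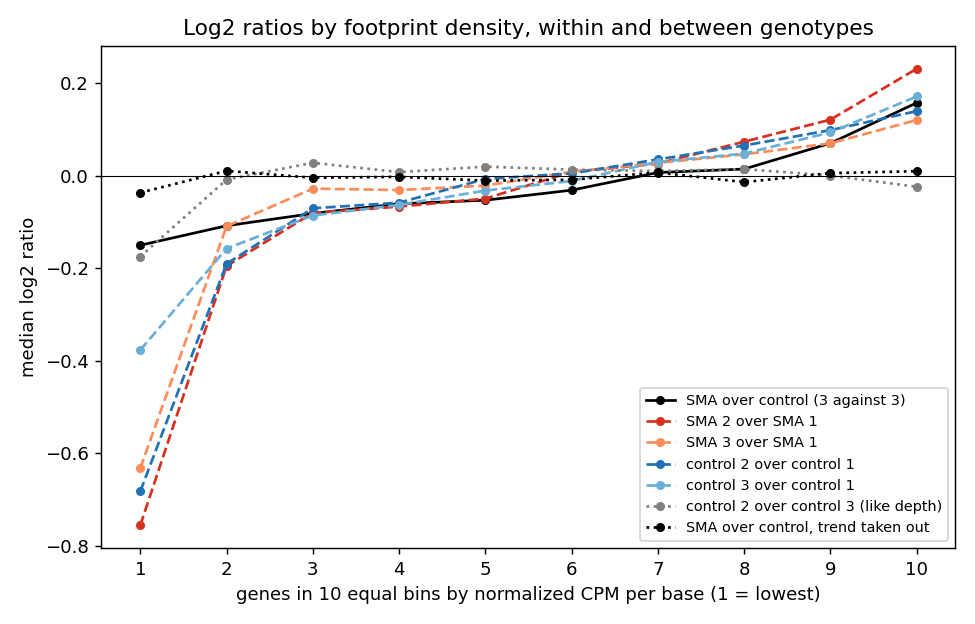
Median log2 ratio (vertical axis) of genes in 10 equal bins of footprint density (normalized CPM per base, horizontal axis, 1 the lowest), for SMA over control and for pairs of libraries of 1 genotype. The line for SMA over control runs from -0.15 to 0.16, the line for SMA 2 over SMA 1 from -0.76 to 0.23, and the line for control 2 over control 3, of like depth, from -0.17 to -0.02. SMA 1, control 1 and control 3 are the libraries in which liver or forebrain genes stood out.

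**Figure D4:**
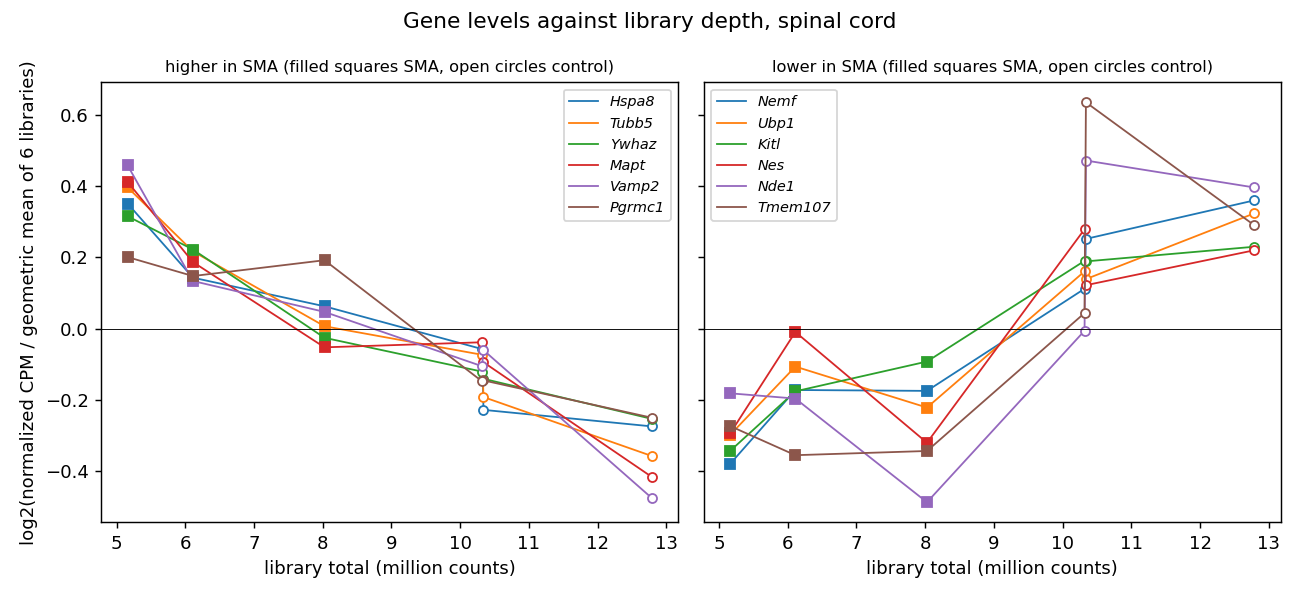
Log2 of normalized CPM over the geometric mean of the 6 libraries (vertical axis) against library total (horizontal axis, scaled as labelled), for 6 genes higher in SMA and 6 lower, with filled squares for SMA and open circles for control. Hspa8, Tubb5, Ywhaz and Mapt step down with depth within the SMA libraries and again within the control libraries, while Pgrmc1 is nearly level within SMA at 102 to 106 CPM.

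Genes of mitosis stood lower in SMA as a list, by an amount that depended on control 1 and SMA 1. All 17 members followed, of 88 written, were lower in SMA, with a median log2FC of -0.63, beside a median of -0.005 over all genes. Their summed level was 643.7, 211.7 and 253 CPM in control and 263.7, 172.9 and 216.2 CPM in SMA. The sums of control 2 and control 3 thus lay within the range of the SMA sums, and control 1 stood apart. Top2a, the topoisomerase that resolves chromosomes in mitosis, had 165, 29.99 and 36.8 CPM in control and 41.3, 21.9 and 32.2 CPM in SMA. Without control 1 its log2FC moved from -1.27 to -0.06. Kif11, the kinesin that separates spindle poles, had 35.5, 8.12 and 8.26 CPM in control and 10.3, 5.51 and 6.91 CPM in SMA, and moved from -1.19 to -0.11. On the 12-library scale Top2a in control cord 1 was at 160.4 CPM, against 166.9 to 184.9 CPM in control brain and 29.5 and 36.3 CPM in control cord 2 and 3. The list's median was -0.06 without control 1 and lay between -0.94 and -0.55 with any of the other 5 libraries left out. With control 1 and SMA 1 left out together, a fit added after seeing the data, it was -0.30. SMA 1 had the highest sum of the SMA libraries. The forebrain genes described for control 1 moved together with these genes, and their part in the difference was not tested.

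Of the 1999 genes with a name, 7.45% had an unadjusted p below 0.05, 4% passed the pathway thresholds (2.9% as lower and 1.1% as higher) and 0.95% passed the stricter thresholds. Only Pttg1 of the 17 mitosis members passed the pathway thresholds. It encodes securin, which keeps the protease separase inactive until anaphase. It had 67.5, 49.1 and 48.6 CPM in control and 37.8, 34.9 and 40.9 CPM in SMA, a log2FC of -0.54 (SE 0.15, unadjusted p = 0.00957 from edgeR). No SMA value reached a control value, and without control 1 the log2FC was -0.37 with an edgeR p still below 0.05.

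Promoters of mitosis genes are shown because genes of late cell cycle phases are known to share a promoter motif, the cell cycle homology region (CHR), through which they are repressed in resting cells. The letters TTTGAA were searched as the CHR on both strands of RefSeq promoters on GRCm38.p6, from 250 bases before to 50 bases after the start of transcription. The CCAAT box, which often stands beside a CHR, was searched in the same way by the letters of its name. The window held TTTGAA for 9 of the 14 mitosis members with a promoter in the table (64.3%), against 20.2% of all 27025 genes, 27.8% of 18 DNA replication members, 0 of 9 ribosomal protein members and 10% of 20 oxidative phosphorylation members. It held CCAAT for 78.6% of the mitosis members and 77.8% of the DNA replication members, against 41.1% of all genes. The 5 sequences here are the bases from 120 before to 30 after the start in the direction of transcription, with matches on either strand in capitals, none of which overlap, and a match on the other strand reads as its reverse complement. Top2a (chr11:99024160-99024309, minus strand), Kif11 (chr19:37376262-37376411, plus strand), Cdc20 (chr4:118437314-118437463, minus strand) and Ncapg (chr5:45669805-45669954, plus strand) were among the mitosis genes highest in control 1, and Pttg1 (chr11:43425952-43426101, minus strand) is the member past the thresholds.
Top2a: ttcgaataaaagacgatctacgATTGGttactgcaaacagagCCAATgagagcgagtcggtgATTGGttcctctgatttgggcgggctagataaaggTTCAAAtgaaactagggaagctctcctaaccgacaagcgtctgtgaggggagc
Kif11: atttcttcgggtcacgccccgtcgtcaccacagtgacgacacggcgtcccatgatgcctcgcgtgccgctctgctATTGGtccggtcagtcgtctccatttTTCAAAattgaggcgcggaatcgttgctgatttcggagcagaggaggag
Cdc20: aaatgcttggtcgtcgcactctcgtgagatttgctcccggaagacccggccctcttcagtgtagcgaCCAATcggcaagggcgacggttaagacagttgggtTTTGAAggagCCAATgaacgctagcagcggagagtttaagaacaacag
Ncapg: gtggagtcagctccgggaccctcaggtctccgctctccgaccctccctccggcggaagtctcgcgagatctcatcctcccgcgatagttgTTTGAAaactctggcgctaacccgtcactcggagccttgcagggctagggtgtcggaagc
Pttg1: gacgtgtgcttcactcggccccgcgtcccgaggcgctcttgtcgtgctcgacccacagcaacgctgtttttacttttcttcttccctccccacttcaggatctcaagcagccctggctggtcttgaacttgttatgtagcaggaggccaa
The first 4 windows hold TTTGAA within 30 bases before the start, and the Pttg1 window holds neither motif. That window lies inside the listed span of Pttg1, chr11:43420244-43427463. On the minus strand the gene's outer start would be at 43427463, and no window there was at hand. The Pttg1 window therefore does not show whether the gene lacks these motifs at its outer start. A match is a description of these letters and not of a bound factor.

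Genes of DNA replication followed a similar course. Of 23 members followed, 21 were lower, with a median log2FC of -0.46, and 2 passed the pathway thresholds as lower and none as higher. The median was -0.07 without control 1 and -0.21 with control 1 and SMA 1 left out together. Gmnn (ENSMUSG00000006715, chr13:24751845-24761937), geminin, which prevents a second firing of replication origins, had 18.1, 10.7 and 14.0 CPM in control and 6.88, 8.67 and 9.70 CPM in SMA, a log2FC of -0.76 (SE 0.24, unadjusted p = 0.0155 from edgeR). It was -0.56 without control 1. Atad2, a chromatin ATPase of proliferating cells, had 73.9, 11.1 and 9.61 CPM in control and 10.9, 6.30 and 6.91 CPM in SMA. Its log2FC was -1.96 with control 1 and -0.36 without it, and control 1 was above the 31.0 to 41.9 CPM of control brain on the 12-library scale. Rpa1, a subunit of the single-stranded DNA binding complex, had 105, 99.3 and 94.8 CPM in control and 87.3, 78.8 and 79.6 CPM in SMA. Its log2FC of -0.29 (SE 0.08, unadjusted p = 0.0117 from edgeR) fell short of the fold threshold but did not rest on 1 library, since its p was below 0.05 with each library left out. All 7 nucleoporins followed were lower, with a median of -0.34. It was -0.12 without control 1 and -0.24 with control 1 and SMA 1 left out together. Among them Tpr, of the nuclear basket, had 392, 215 and 184 CPM in control and 177, 158 and 170.2 CPM in SMA, a log2FC of -0.65 (SE 0.27) that was -0.25 without control 1.

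Progenitor genes showed no common direction. Of 11 followed, 6 were lower, with a median log2FC of -0.04. Nes (ENSMUSG00000004891, chr3:87971093-87980451), which encodes the intermediate filament nestin of neural progenitors, was the member past the pathway thresholds. It had 164, 153 and 170.5 CPM in control and 113, 115 and 139.6 CPM in SMA, with no overlap and a log2FC of -0.41 (SE 0.11, unadjusted p = 0.00662 from edgeR). Its difference was not set by control 1, which was neither its highest nor its lowest control library, and over the leave-one-out fits it lay between -0.51 and -0.35. In brain the log2FC of Nes was -0.33 (unadjusted p = 0.0093 from edgeR). Slc1a3, the glutamate transporter of radial glia, had the other sign, with 247, 222 and 239 CPM in control and 301, 245 and 287 CPM in SMA, and these values overlapped. Dll1 and Dll3, Notch ligands of neurogenic progenitors, had log2FC values of -0.04 and -0.14.

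Genes of the primary cilium, the organelle named in the study's title, were followed for 8 of 48 transition zone and basal body genes and 9 of 58 intraflagellar transport and BBSome genes. Tmem107 (ENSMUSG00000020895, chr11:69070809-69073293), a membrane protein of the transition zone, had 11.1, 14.0 and 9.32 CPM in control and 7.13, 7.48 and 7.07 CPM in SMA, a log2FC of -0.67 (SE 0.20, unadjusted p = 0.0117 from edgeR). Nde1 (ENSMUSG00000022678, chr16:14163275-14192928), a dynein partner that acts at centrosomes and restrains cilium length, had 36.4, 38.4 and 27.6 CPM in control and 19.8, 24.4 and 24.2 CPM in SMA, a log2FC of -0.59 (SE 0.17, unadjusted p = 0.00912 from edgeR). Neither overlapped between the genotypes, and for both the p stayed below 0.05 with each library left out. The log2FC without control 1 was -0.69 for Tmem107 and -0.54 for Nde1. These were the 2 members past the pathway thresholds, and the median over the 8 was -0.22. Fbf1, a protein of the transition fibres, had 46.1, 52.7 and 54.4 CPM in control and 44.2, 42.5 and 38.2 CPM in SMA, a log2FC of -0.29. Cep290, which anchors the transition zone, varied widely, with 44.5, 22.1 and 16.5 CPM in control and 18.8, 6.89 and 17.9 CPM in SMA. These overlapped, and its log2FC of -0.92 had a SE of 0.48 (unadjusted p = 0.0926 from edgeR). The intraflagellar transport list had a median of -0.07 and no member past the thresholds. Of its members, Ift20 lay between 50.8 and 60.1 CPM and Ift46 between 182 and 206 CPM over the 6 libraries. Of 4 Hedgehog pathway members followed, 3 were higher and 1 lower, with a median log2FC of 0.09 and none past the thresholds. The lower member was the receptor Ptch1, at 167, 147 and 136 CPM in control and 143, 114 and 122 CPM in SMA. Its log2FC was -0.25 (SE 0.12) with overlap. Tubd1, delta-tubulin of centrioles, had 11.2, 8.50 and 7.59 CPM in control and 5.75, 5.51 and 3.45 CPM in SMA, a log2FC of -0.89 (SE 0.27).

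Genes of neurons, microtubules and synapses were mostly higher in SMA by small amounts. Of 11 pan-neuronal members followed, 10 were higher, with a median log2FC of 0.17, and 2 passed the pathway thresholds. Mapt, the microtubule-binding protein tau, had 1139, 1424 and 1480.0 CPM in control and 1466, 2021 and 1729.6 CPM in SMA, a log2FC of 0.37 (SE 0.14). SMA 1 overlapped the range of control. Nsg2, a vesicular protein of neurons, had 264, 300.1 and 296 CPM in control and 333, 407 and 349 CPM in SMA, a log2FC of 0.34 (SE 0.10) with no overlap. The neurofilament genes Nefl and Nefm had log2FC values of 0.20 and 0.19 with overlapping values. Without control 1 the median of this list was 0.06, and with the density trend taken out it was 0.06.

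Of 9 tubulins and microtubule-associated proteins, 7 were higher, with a median of 0.24, and Tubb5 and Mapt passed the pathway thresholds as higher and Tubd1 as lower. The median was 0.06 with the density trend taken out and -0.18 with the log2 library total as covariate. Tubb5, a beta-tubulin of young neurons and progenitors, had 759.7, 852 and 925 CPM in control and 978, 1280.5 and 1131 CPM in SMA, a log2FC of 0.42 (SE 0.11, unadjusted p = 0.00762 from edgeR). It was 0.18 with the trend taken out. Of 12 synaptic members, Vamp2, the vesicle SNARE synaptobrevin, passed the thresholds. It had 226, 302 and 293 CPM in control and 325, 432 and 345 CPM in SMA, a log2FC of 0.43 (SE 0.15), and 0.31 with the trend taken out. The other 11 synaptic members had log2FC values between -0.19 and 0.20. Axon guidance genes had a median of 0.00 over 7 members.

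Ribosomal proteins shared small differences in 1 direction. All 14 members followed of 82 were higher in SMA, with a median log2FC of 0.22, and none passed the pathway thresholds. Rps25, of the small subunit, had 163, 164 and 165 CPM in control and 187, 213 and 195 CPM in SMA, a log2FC of 0.27 (SE 0.08, unadjusted p = 0.0107 from edgeR). Rps15a had 168, 159 and 176 CPM in control and 193, 209.7 and 185 CPM in SMA, a log2FC of 0.23. Both had no overlap, and both were picked after their values were seen. The median of the list was 0.18 without control 1, 0.30 without SMA 1 and 0.12 with the density trend taken out, and it turned to -0.20 with the log2 library total as covariate. The number of members past the pathway thresholds was 6 without SMA 1 and 8 with both liver-rich libraries left out. Over all 10481 genes these fits gave 980 and 1076, against 439 with all 6 libraries, so the rise was not particular to this list. Ribosomal protein genes have many near-identical pseudogenes, and reads with up to 5 alignments were kept by the authors, so their counts are uncertain.

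Nuclear genes of oxidative phosphorylation were similar. Of 27 members followed, 26 were higher, with a median log2FC of 0.17, and 2 passed the pathway thresholds as higher. Atp5g3, of the membrane ring of ATP synthase, had 194, 221 and 235 CPM in control and 233, 302 and 273 CPM in SMA, a log2FC of 0.31 (SE 0.12). Ndufa11, of complex I, had 120.0, 147 and 143 CPM in control and 153, 199.9 and 165 CPM in SMA, a log2FC of 0.33 (SE 0.13). Atp5g3 overlapped between the genotypes in SMA 1, and Ndufa11 did not overlap. With the trend taken out the median was 0.07. Of 6 glycolysis genes, 5 were higher, with a median of 0.16. By contrast, 17 mitochondrial ribosomal proteins had a median of -0.05 with 9 lower, and 17 proteasome subunits a median of 0.06 with 4 lower. Translation factors had a median of 0.00 over 16 members, 8 of them lower, and tRNA synthetases one of -0.09 over 9.

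**Figure D5:**
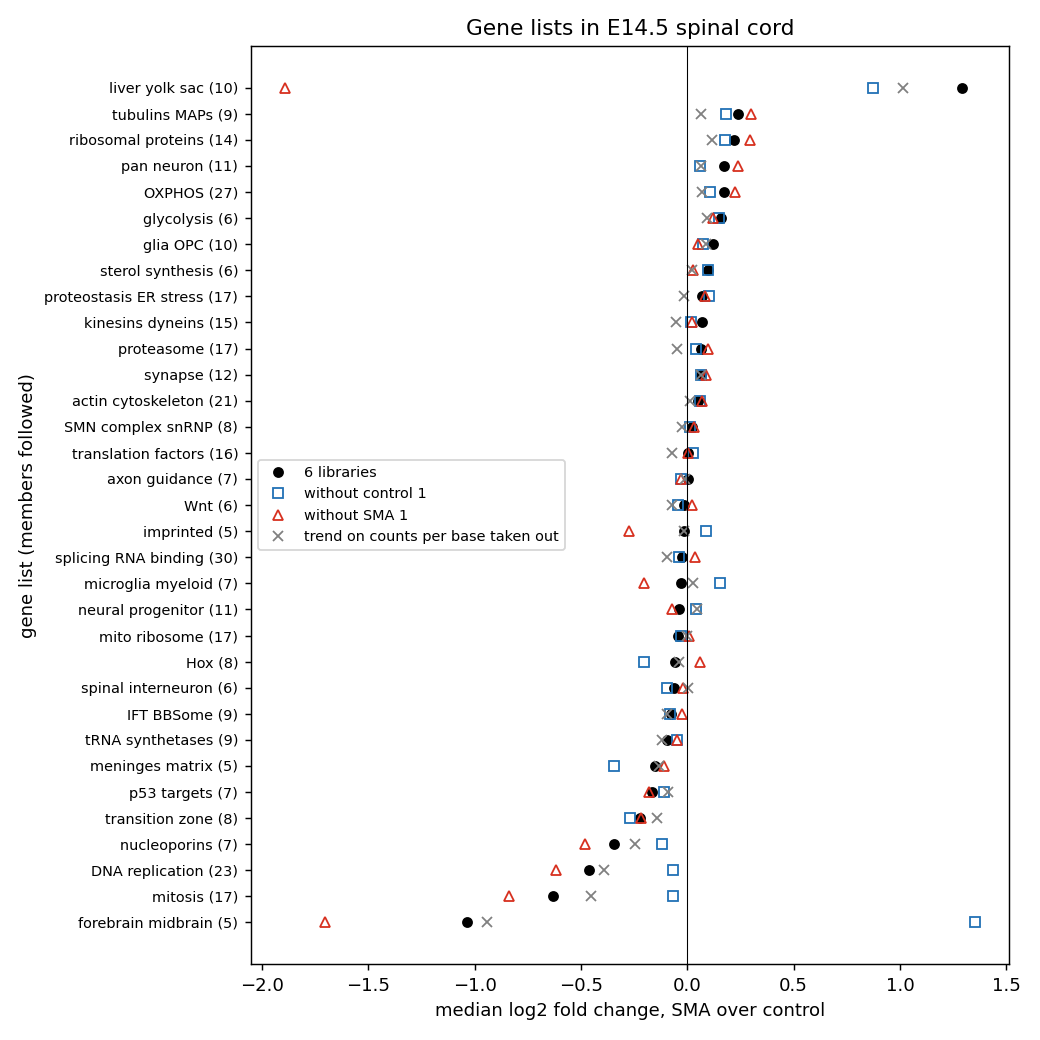
Median log2FC of SMA over control for each gene list with at least 5 members followed (number in brackets), from all 6 libraries, without control 1, without SMA 1 and with each library's density trend taken out. The median of mitosis moves from -0.63 to -0.06 without control 1, and that of the ribosomal proteins lies between 0.12 and 0.30 in all 4 fits.

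Genes of the pathway in which SMN acts showed little difference. Of 8 SMN complex and snRNP members followed, 3 were lower, with a median log2FC of 0.02 and none past the thresholds. Snrpd3, an Sm core protein, had 90.9, 116 and 102 CPM in control and 84.3, 139 and 118 CPM in SMA, so the spread within a genotype was larger than the difference. Over 30 splicing and RNA binding genes the median was -0.02, with 17 lower. Ptbp1, a splicing repressor of progenitors, had 457, 289 and 311 CPM in control and 275, 273 and 263 CPM in SMA, a log2FC of -0.38 that was -0.15 without control 1. Of the 7 p53 targets followed, 5 were lower, with a median log2FC of -0.17 and a lowest value of -0.66, and none passed the pathway thresholds. The 2 higher ones, Bax and Bbc3, which promote apoptosis, had log2FC values of 0.21 (unadjusted p = 0.0798 from edgeR) and 0.32 (unadjusted p = 0.0513 from edgeR). Pls3, which encodes the actin-bundling protein plastin 3, known as a modifier of SMA severity, had 107, 94.8 and 98.0 CPM in control and 84.3, 71.5 and 84.7 CPM in SMA. There was no overlap, and its log2FC was -0.32 (SE 0.10, unadjusted p = 0.0149 from edgeR). It was the member past the pathway thresholds of 21 actin cytoskeleton genes followed, whose median was 0.05.

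Lists of other cell types gave the levels of tissue that a dissection can carry. The 10 liver and yolk sac members followed were all higher in SMA, with a median log2FC of 1.29, and none passed the thresholds. Their summed level was 554.6, 578.6 and 1333 CPM in control and 2476, 699.9 and 660.1 CPM in SMA, and the median turned to -1.89 without SMA 1. Of the erythroid genes, the red cell anion exchanger Slc4a1 had 1.79, 1.24 and 1.06 CPM in control and 10.9, 2.76 and 3.62 CPM in SMA. Its log2FC was 2.08 (SE 0.57, unadjusted p = 0.00798 from edgeR) and 1.21 without SMA 1. The globin genes on this list were not followed by name, and the genes without a name at hand may include them. The 5 forebrain genes followed had a median of -1.03, which was 1.35 without control 1 and -1.70 without SMA 1. Lhx9, a transcription factor of dorsal interneurons and also of brain, had 64.8, 28.0 and 26.2 CPM in control and 25.1, 16.1 and 18.7 CPM in SMA, a log2FC of -0.98 that was -0.43 without control 1. Over the 4 endothelial genes followed the median was -0.08, and over 5 meningeal and matrix genes -0.15. Tfap2a, a transcription factor of skin and neural crest that is also active in dorsal interneurons, had 103, 119.6 and 130.1 CPM in control and 157, 144 and 139 CPM in SMA, a log2FC of 0.32 with no overlap.

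The difference in cord was compared with that in brain by testing, over all 12 libraries, whether the effect of genotype depended on tissue. An unadjusted p below 0.05 was reached by 249 genes (2.38%), where 524 would be expected if no gene differed in this way. None had an adjusted p below 0.05 with edgeR (0%). The smallest unadjusted p was 0.000443. Of the 39 genes given statistics by name, 27 had the same sign in brain as in cord. The share over all genes is not given here, so this count has no background. Ubp1 had a log2FC of -0.42 in cord and 0.29 in brain, and its unadjusted interaction p was 0.00353 from edgeR. Kitl had a log2FC of -0.40 in cord and 0.18 in brain, and its unadjusted interaction p was 0.0166 from edgeR. Ubp1, Kitl and Nde1 were named for their difference in cord, which enters the interaction. Nde1 and Cep290 had unadjusted interaction p-values of 0.0126 and 0.0347 from edgeR. All 4 had an adjusted interaction p of 1, so none of the differences is shown to be particular to the cord.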

How the data were processed

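Footprints came from snap-frozen E14.5 tissue, from the 80S monosome fraction of a cytoplasmic lysate made with cycloheximide. Per the labels and the study's methods, reads were trimmed with Cutadapt 4.1, rRNA and tRNA reads were removed, the rest was aligned with STAR 2.5.3a to GRCm38.p6 with at most 5 alignments per read, and reads at the same transcript position were removed. Whether the deposited counts come from before or after that removal is not given in the sources used here. The authors dropped genes under the 80th FPKM quantile in all replicates of a condition. The deposited values are raw counts per gene and library, and the counting tool is not given in the sources used here. Every value column belongs to a labelled library.

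Counts of the 6 spinal cord libraries were TMM-normalized and tested 2-sided with edgeR 4.0.16 in R 4.3.3 (glmQLFit without robust estimation, glmQLFTest, no covariate, Benjamini-Hochberg over 10481 genes), and genes had to reach a mean CPM of 0.05. The SE of a log2FC was computed as its ratio to the root of F. Names came from supplementary data of the study, and coordinates from RefSeq's GRCm38.p6 table, matched by symbol. The steps were tested on simulated data. Alternatives were DESeq2 1.42.0, library size or upper-quartile scaling, filterByExpr, a mean CPM of at least 1, robust estimation, all 12 libraries, thinning, the density trend, a replicate block, a log2FC of at least 1 and each library left out. Added after seeing the data were the newer quasi-likelihood fit, log2 total as covariate and 2 pairs of libraries left out. Genes named were those the study's text names, list members past the pathway thresholds (at most 4 per list, else the most abundant), the 10 genes lower and 10 higher with the smallest p, at least 20 counts and no overlap among those past the stricter thresholds, and for cell types the 4 most abundant members, as far as names were at hand. Others, such as Top2a, Kif11, Cdc20, Ncapg, Rpa1 and members given as examples of a list, were picked after their values were seen. Genes and lists were chosen with earlier results of these data known. Pairs of libraries differed by more than sampling noise, and the chi-square per gene lay between 5.13 and 31.1. Figures were drawn with matplotlib 3.10.9.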

Additional observations from a re-analysis of the deposited data

How the results depend on the processing

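Against 733 genes at an unadjusted p below 0.05, 103 past the thresholds of the study and 439 past the pathway thresholds, the log2 library total as covariate gave 1589, 1188 and 1578. Leaving out both liver-rich libraries, SMA 1 and control 3, gave 1160, 556 and 1076, and leaving out control 1 and SMA 1 gave 272 past the thresholds of the study and 745 past the pathway thresholds. One fit over all 12 libraries gave 169 past the thresholds of the study, and a log2FC of at least 1 in either direction left 24. With each library left out in turn the counts ranged from 391 (without control 1) to 1216 (without SMA 1), from 58 to 388 and from 231 to 980, with the lowest and highest counts from the same 2 libraries, and the interaction count from 190 (without SMA spinal cord 3) to 423 (without control brain 1). Of the settings run, only DESeq2 gave genes with an adjusted p below 0.05, 84 of them.

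The share of genes past the thresholds of the study that were lower was 65.0% (95% Wilson interval 55.45 to 73.56%, counting error only). It was 80% with DESeq2, 75.7% with library size alone, 50% with the density trend taken out, 41.7% with the log2 library total as covariate, 74.3% without control 1 and SMA 1, and between 48.3 and 76.4% with single libraries left out.

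With the replicate number as a block the counts were 1438, 207 and 744 and the share 79.7%. The numbers do not pair the libraries, since deviations from the group means correlated at 0.178, 0.689 and -0.5 for numbers 1, 2 and 3 and control 3 correlated best with SMA 1, at 0.582. Of 37 named genes with an unadjusted p below 0.05, 0 lost that call under the block, 22 lost it and 13 turned with the log2 library total as covariate, 5 lost it with the density trend taken out, 11 without control 1, 11 without SMA 2 and 9 without SMA 3.

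The direction of 15 named genes turned under the log2 library total as covariate, and none of the 39 turned under another setting run. The log2FC then was -0.10 for Tubb5, -0.29 for Mapt, -0.038 for Nsg2, -0.19 for Vamp2, -0.070 for Ywhaz, -0.059 for Prdx2, -0.20 for Atp5g3, -0.19 for Ndufa11, 1.45 for Atad2, 0.22 for Tpr, 0.58 for Lhx9, 0.77 for Apobec3, 0.23 for Pkn2, 1.11 for Cep290 and 1.58 for Top2a. With depth so close to genotype, that fit rests on few degrees of freedom, and the cause of the turns was not tested. In low-count genes such as Tubd1, Tmem107 and Gmnn, depth limits precision.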

Other observations

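Among the other genes past the stricter thresholds were Fancl, Apobec3, Pkn2 and Zfp184, all lower in SMA. Fancl, the ubiquitin ligase of the Fanconi anaemia pathway of DNA crosslink repair, had 22.6, 19.6 and 20.9 CPM in control and 15.4, 16.1 and 10.9 CPM in SMA, a log2FC of -0.57 (SE 0.18). Zfp184, a zinc finger protein, had 44.1, 42.6 and 40.0 CPM in control and 33.5, 32.3 and 19.9 CPM in SMA, a log2FC of -0.56 (SE 0.20). Neither gene overlapped between the genotypes, and control 1 was not far from the other control libraries in either. Apobec3, a cytidine deaminase that restricts retroviruses, had 24.4, 10.5 and 10.8 CPM in control and 9.88, 4.53 and 6.08 CPM in SMA, a log2FC of -1.14 that was -0.62 without control 1. Pkn2, a protein kinase of the protein kinase N family, had 70.0, 36.1 and 41.5 CPM in control and 34.3, 28.2 and 30.6 CPM in SMA, a log2FC of -0.67 that was -0.32 without control 1. In both, control 1 was the highest library.

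Hox genes varied between libraries of 1 genotype. Hoxb6, which is expressed along the trunk cord, had 67.7, 162 and 68.6 CPM in control and 66.2, 124 and 115 CPM in SMA, and Hoxb9 had 72.2, 126 and 78.8 CPM in control and 78.8, 155 and 137 CPM in SMA. The 3 libraries with the lower levels of both genes were control 1, control 3 and SMA 1, the same libraries in which forebrain or liver genes stood out. Between genotypes the log2FC values were 0.03 and 0.42 with overlapping values.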
